A study of Mus musculus with 2 samples.

Results

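The endoplasmic reticulum stress response was followed through 32 genes that encode its sensors, its transcription factors and the chaperones, oxidoreductases and degradation components they control. The genes were chosen by name, with earlier results of these data known. All 32 had a row in both deposited count tables, out of 24417 genes listed in either table. The study gave silica at 400 mg/kg into the trachea of CCR2KO mice, which lack the chemokine receptor CCR2, and of WT mice, both C57BL/6, and took lungs on days 3, 7 and 21. Every group was silica-treated, so no untreated lung entered any comparison. Enzymatically dissociated lung cells were stained with numbered antibody hashtags, pooled, and sequenced as 1 BD Rhapsody library per genotype, with 8 hashtags in the CCR2KO library and 9 in the WT library. The labels used here do not say which hashtag belongs to which day or animal. Genotype and library cannot be told apart, because each genotype was run as a single library.

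The endoplasmic reticulum folds secreted and membrane proteins, and unfolded chains that accumulate in its lumen activate 3 membrane sensors, Ern1 (IRE1), Eif2ak3 (PERK) and Atf6. Ern1 splices the Xbp1 mRNA, Eif2ak3 phosphorylates a translation initiation factor and so favours translation of Atf4, and Atf6 is cleaved to a transcription factor. Together they induce luminal chaperones such as Hspa5 (BiP), enzymes that form disulfide bonds, and the machinery that returns misfolded proteins to the cytosol for degradation, in which Herpud1 is a membrane scaffold. In the lung the response is well known from alveolar type 2 cells, which secrete surfactant proteins, from matrix-secreting fibroblasts and from antibody-secreting plasma cells.

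The promoters of the response carry short elements that these transcription factors read, and the 3 genes to which the results below return most often hold them within 250 bases before and 50 bases after the RefSeq start. The windows are given on GRCm38.p6, with the matched letters in capitals. Herpud1 (chr8:94386179-94386478, plus strand) holds the reverse complement of the amino acid response core TGATGCAA, read by Atf4 with C/EBP partners, and the endoplasmic reticulum stress element II, which is ATTGG and CCACG with 1 base between them. Dnajc3 (chr14:118937682-118937981, plus strand) and Hspa5 (chr2:34771840-34772139, plus strand) each hold the endoplasmic reticulum stress element, CCAAT and CCACG with 9 bases between them, read by Atf6 and Xbp1 together with NF-Y.
Herpud1: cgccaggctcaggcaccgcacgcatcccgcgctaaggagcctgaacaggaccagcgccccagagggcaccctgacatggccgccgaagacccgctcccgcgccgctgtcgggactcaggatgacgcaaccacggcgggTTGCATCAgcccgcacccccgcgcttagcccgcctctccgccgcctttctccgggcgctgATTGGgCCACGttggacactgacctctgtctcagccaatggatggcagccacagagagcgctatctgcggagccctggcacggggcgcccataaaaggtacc
Dnajc3: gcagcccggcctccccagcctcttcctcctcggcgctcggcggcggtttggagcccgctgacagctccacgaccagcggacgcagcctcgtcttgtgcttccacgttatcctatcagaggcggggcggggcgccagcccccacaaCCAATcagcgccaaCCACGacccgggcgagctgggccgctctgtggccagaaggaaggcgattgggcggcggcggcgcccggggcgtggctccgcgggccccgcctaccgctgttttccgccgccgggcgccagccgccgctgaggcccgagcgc
Hspa5: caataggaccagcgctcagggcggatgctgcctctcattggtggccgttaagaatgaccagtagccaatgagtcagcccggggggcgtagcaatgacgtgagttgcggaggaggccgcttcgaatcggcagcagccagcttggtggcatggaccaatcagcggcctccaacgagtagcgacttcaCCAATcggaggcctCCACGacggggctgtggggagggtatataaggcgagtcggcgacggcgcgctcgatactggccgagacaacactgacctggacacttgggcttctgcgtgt
Both strands were searched within this window, and no matches overlapped in the promoters printed. A match describes the letters and not a site in use. The stress element occurred in 39 of 32851 mouse promoters (0.119%) and in 9 of the 28 members with a promoter entry, which were Calr, Canx, Creld2, Derl3, Dnajc3, Hsp90b1, Hspa5, Pdia6 and Syvn1. Element II occurred in 12 promoters (0.0365%), among them those of Dnajb11 and Herpud1, and the amino acid response core in 294 (0.895%), among them those of Chac1 and Herpud1. The letters TGACGTGG, an element bound by Xbp1, occurred in 222 promoters (0.676%) and in 0 of the member windows.

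The libraries held 15955 CCR2KO and 17854 WT cells with a single hashtag, and after filtering 14882 and 16857 cells remained. Each hashtag summed to between 56541715 and 88359317 reads in the CCR2KO library and between 63327246 and 94948946 in the WT library. At an equal depth of 5000 reads a cell, the CCR2KO hashtags detected 738 ± 26.2 genes (SD, n = 8) and the WT hashtags 849.6 ± 50.6 genes (SD, n = 9), so the libraries differed in complexity before any gene was compared. The libraries shared 318 barcode numbers. Ccr2 itself, on chromosome 9, had between 1.45 and 4.39 CPM (the gene's reads for every 1000000 reads of the same cells) in the CCR2KO hashtags, with a median of 2.48, and between 53.8 and 101 CPM in the WT hashtags, with a median of 69.98. These ranges did not overlap. Cells were clustered without the 32 genes, the other endoplasmic reticulum lists and Ccr2, and clusters were given class names from marker genes. Of these classes, 22 had enough cells for a comparison by hashtag, and 8 of them form the secretory epithelium (alveolar type 2-like and club-like), the fibroblasts (alveolar, adventitial and activated) and the macrophages (alveolar, interstitial and an Mmp12- and Gpnmb-high class). The secretory classes held 1526 CCR2KO and 893 WT alveolar type 2-like cells and 124 CCR2KO and 97 WT club-like cells, and only 3 WT hashtags had the 10 club-like cells needed. All statements on classes are descriptions of clusters built from the same cells.

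Among the 8 classes, the 32 genes took a smaller share of reads in the secretory epithelium than in the adventitial and activated fibroblast-like and the alveolar macrophage-like cells. Summed over the members, adventitial fibroblast-like cells reached 10825 ± 780 CPM in CCR2KO and 9802 ± 598 CPM in WT hashtags (SD, n = 8 and 9). Activated fibroblast-like cells had 9606 ± 722 and 9054 ± 1000.0 CPM, and alveolar macrophage-like cells 9161 ± 525.9 and 8630 ± 897 CPM, in CCR2KO and WT. Alveolar type 2-like cells had 5720 ± 648 CPM in CCR2KO and 5286 ± 538 CPM in WT, and club-like cells 3717 ± 865 CPM in CCR2KO (n = 8) and 4630 ± 389 CPM in WT (n = 3). CPM is a share of a cell's reads, and in the secretory classes a few secreted products took much of it: the 10 most abundant genes, led by Sftpc in alveolar type 2-like and by Scgb1a1 in club-like cells, held 26.3% and 50.8% of reads, against 11.9% in alveolar fibroblast-like cells. With those 10 genes left out of each class's total, the sums were 7447 CPM in alveolar type 2-like, 8105 CPM in club-like and 10048 CPM in alveolar fibroblast-like cells, so the distance between secretory epithelium and fibroblasts narrowed and club-like cells moved above alveolar type 2-like cells.

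**Figure D1:**
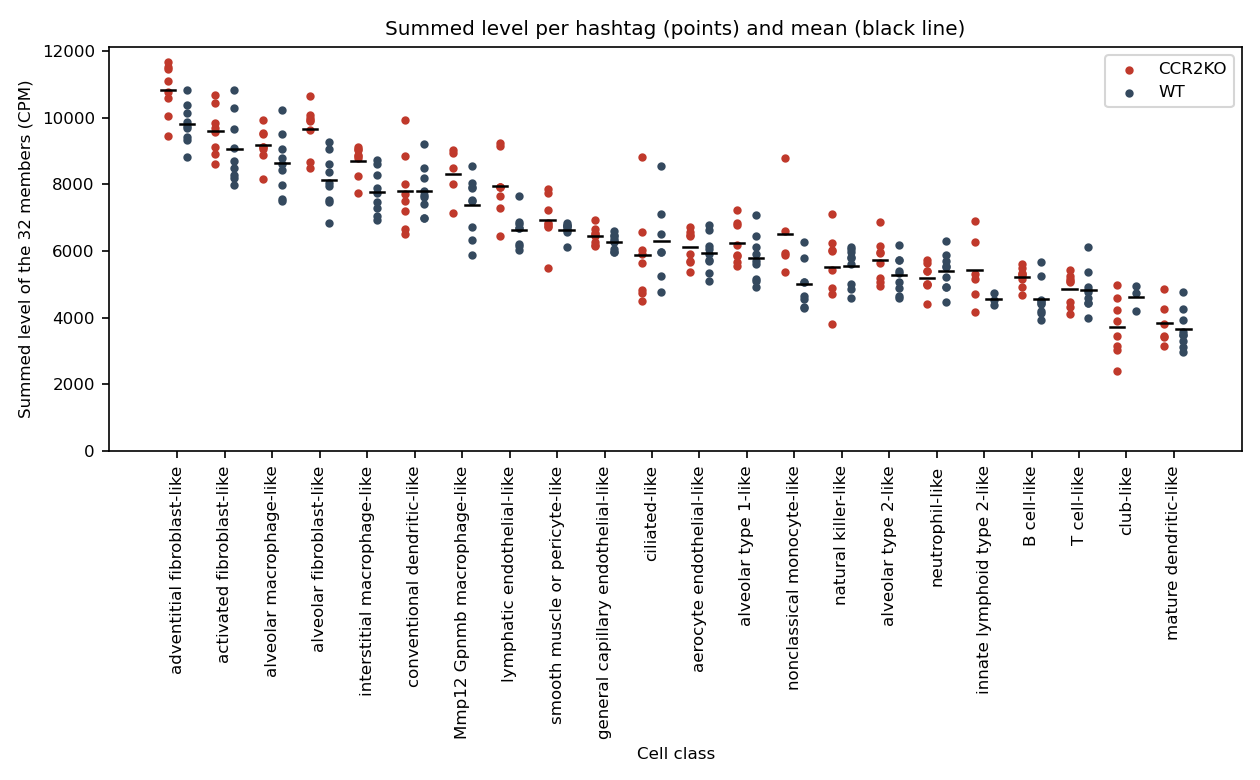
Summed level of the 32 genes per hashtag (CPM, vertical axis) in each of the 22 cell classes, CCR2KO hashtags left of WT hashtags, with a point per hashtag and a black line for the mean. Adventitial fibroblast-like cells sit highest at 10825 CPM (CCR2KO) and 9802 CPM (WT), and club-like cells lowest of the 8 classes at 3717 and 4630 CPM.

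Among the luminal chaperones, Hspa5, the main chaperone of the compartment, averaged 2248 CPM over both genotypes in adventitial fibroblast-like cells, 1960 CPM in alveolar and 1770 CPM in activated fibroblast-like cells, and was lowest in mature dendritic-like cells with 403 CPM. Hsp90b1 (GRP94), Manf, Dnajc3, Pdia3 and Pdia6 also had their highest class mean in adventitial fibroblast-like cells, and these 6 members were the only ones with that class on top. Calr (calreticulin) and Canx (calnexin), which hold glycoproteins during folding, were highest in alveolar macrophage-like cells, with 1391 and 516 CPM. Hyou1, a chaperone that works with Hspa5, averaged 84.3 CPM in conventional dendritic-like and 11.2 CPM in mature dendritic-like cells. Sdf2l1, a partner of the Hspa5 co-chaperones, averaged 169 CPM in conventional dendritic-like, 167 CPM in alveolar macrophage-like and 165 CPM in interstitial macrophage-like cells. Dnajb9, a co-chaperone of Hspa5, was the only member with its highest mean in alveolar type 2-like cells, at 105 CPM against 102 CPM in adventitial fibroblast-like cells. In each of these genes the hashtags of the highest class overlapped those of the next, so the order of neighbours is not beyond their spread.

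The sensors, transcription factors and downstream stress genes were spread over other classes. Eif2ak3 averaged 178 CPM in B cell-like cells and 29.0 CPM in T cell-like cells, the next class. It was the only member whose highest class did not overlap the second, a trait that was not counted over all genes. Its B cell-like mean was 218 ± 70.6 CPM in CCR2KO and 142 ± 39.0 CPM in WT hashtags (SD, n = 8 and 9). Xbp1 was highest in nonclassical monocyte-like cells (476 CPM), with 325 CPM in alveolar fibroblast-like cells. Neutrophil-like cells led for Ddit3 (CHOP, a pro-apoptotic transcription factor) with 192 CPM, for Ppp1r15a (GADD34, which reverses the translation block) with 717 CPM, for Derl1 with 164 CPM and for Chac1 with 7.29 CPM. Ppp1r15a was lowest in alveolar macrophage-like cells with 65.5 CPM. Trib3, a pseudokinase induced through Atf4 and Ddit3, reached 18.4 CPM in the Mmp12- and Gpnmb-high macrophages, and Asns, asparagine synthetase, 39.3 CPM in aerocyte-like cells. Ddit3 has a pair of overlapping entries in the GENCODE M21 annotation, which was used here for gene positions. Whether its reads were divided between such entries in the deposited counts is not known. Over all 32 members the highest class was adventitial fibroblast-like for 6, and alveolar macrophage-like, conventional dendritic-like and neutrophil-like for 4 each, and mature dendritic-like cells were lowest for 11.

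**Figure D2:**
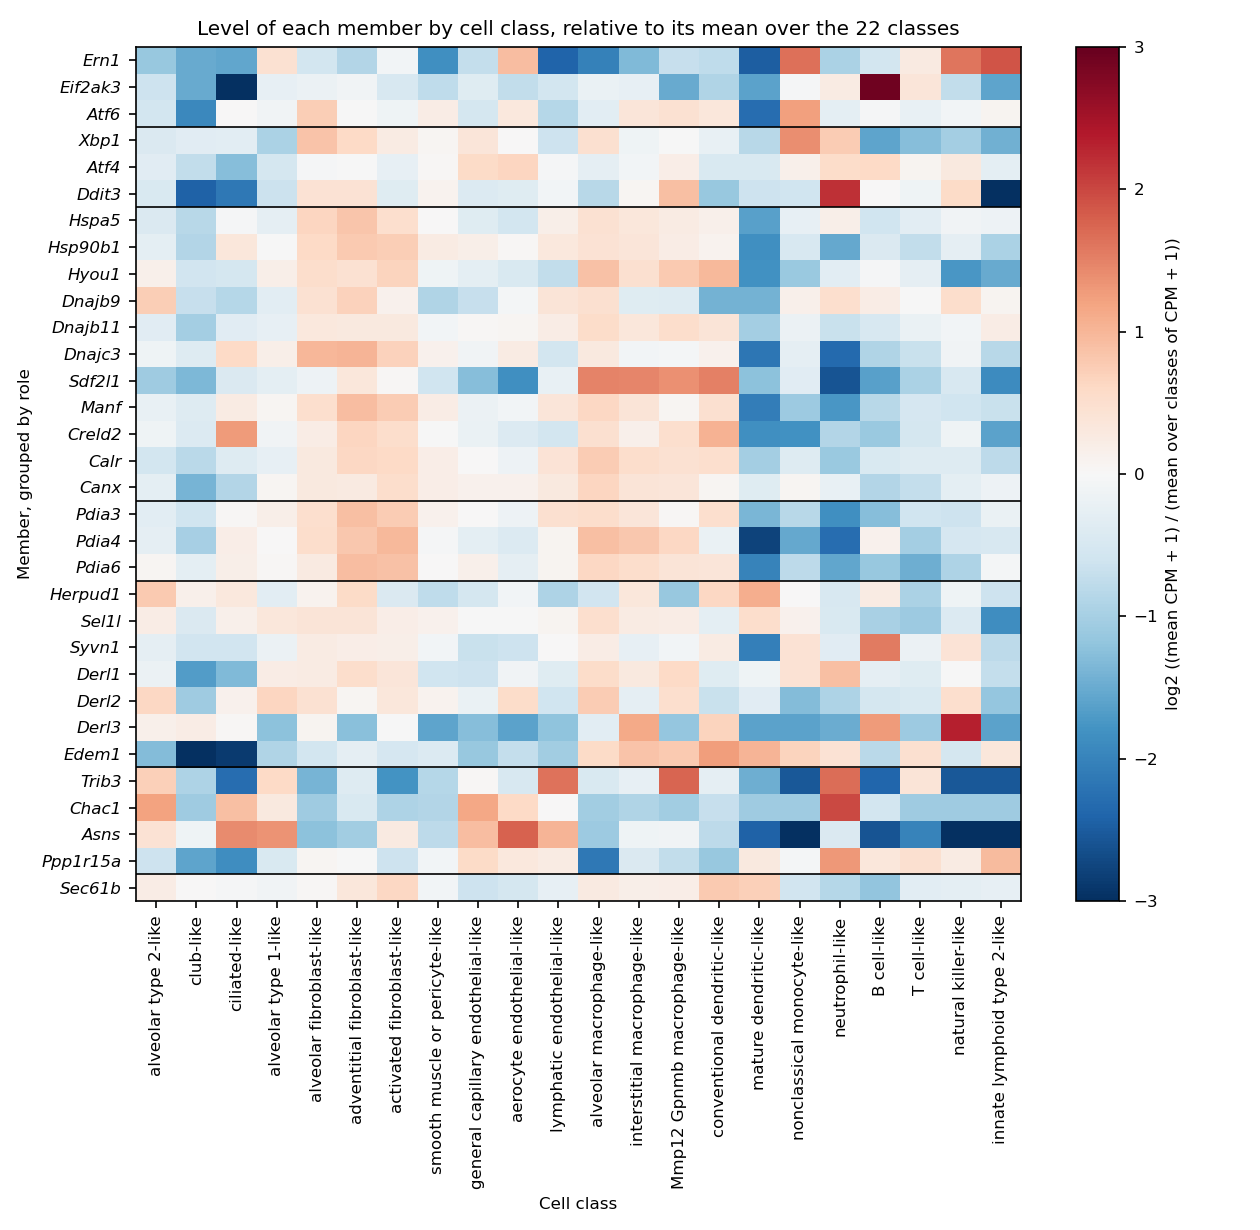
Mean level of each of the 32 genes in each class, relative to that gene's own mean over the 22 classes (colour, log2 of CPM + 1, cut at -3 and 3), with genes in rows ordered by role and cell classes in columns. Fibroblast-like and alveolar macrophage-like columns are high for Hspa5, Hsp90b1, Calr and the disulfide isomerases, and Eif2ak3 is high in the B cell-like column.

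The genes of degradation had their highest means in several classes. Herpud1 averaged 306.6 CPM in mature dendritic-like cells and 247 CPM in alveolar type 2-like cells, ahead of conventional dendritic-like cells with 222 CPM, and was lowest in the Mmp12- and Gpnmb-high macrophages with 65.3 CPM. Edem1, which recognises mannose-trimmed glycoproteins for disposal, averaged 143 CPM in conventional dendritic-like and 5.09 CPM in club-like cells. Syvn1 (HRD1), the ubiquitin ligase of the pathway, was highest in B cell-like cells with 140.3 CPM, and its adaptor Sel1l averaged 101 CPM in mature dendritic-like and 100.02 CPM in alveolar macrophage-like cells. Derl2, a derlin of the same machinery, averaged 55.2 CPM in alveolar macrophage-like, 51.1 CPM in alveolar type 1-like and 49.9 CPM in alveolar type 2-like cells. Derl3 was too low to test in any class, and its natural killer-like mean rested on a single WT hashtag with 244 CPM, all other hashtags of that class being at 0.

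Members were also set beside each other by hashtag in pairs of classes, and the share that separated a pair is given with that of all genes. Of 27 members with at least 10 CPM, 0 were higher in every alveolar type 2-like hashtag than in every alveolar fibroblast-like hashtag, against 5.11% of 8819 genes, and Hspa5 and Calr were lower in every hashtag, against 10.6% of genes. Against alveolar macrophage-like cells, Ppp1r15a alone was higher in alveolar type 2-like cells (8.35% of 8236 genes), and Hspa5, Sdf2l1, Calr, Canx and Edem1 were lower (11.3%). Between club-like and alveolar type 2-like cells 0 of 28 members separated in either direction (0.473% and 3.34% of 7189 genes). Activated and alveolar fibroblast-like cells were separated by 0 of 27 members (0.415% higher and 1.45% lower), adventitial and alveolar fibroblast-like cells by 0 of 27 (0.822% and 1.53%), and the Mmp12- and Gpnmb-high macrophages and alveolar macrophage-like cells by 0 of 28 (0.662% and 1.6%). Interstitial macrophage-like cells were higher than alveolar macrophage-like cells for Ppp1r15a, 1 of 27 members (1.57%), and lower for 0 (1.27%).

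Plasma cell-like cells gave the members a larger share of their reads than any tested class, but were too few for a test, with 61 in the CCR2KO library and 5 in the WT library. Pooled over the 61 CCR2KO cells, the members summed to 19262 CPM, against 5285 CPM in the 1145 CCR2KO B cell-like cells. Xbp1, which antibody-secreting cells depend on, had 1473 CPM, against 46.0 CPM in the B cell-like cells. Derl3 had 454 CPM against 7.68 CPM, Edem1 759 CPM (18.7 times the B cell-like value) and Creld2 668 CPM (21.1 times). All 4 were higher in the plasma cell-like cells. Herpud1 had 834 CPM in plasma cell-like and 206 CPM in B cell-like cells. Of 28 members compared, 19 were at least 2-fold higher in the plasma cell-like cells, against 10.7% of 7453 genes. The pooled value of 18 of the 32 was above the mean of every tested class, which was not counted over all genes. Eif2ak3, Ppp1r15a, Atf4 and Ddit3 went the other way, at 0.419, 0.296, 0.689 and 0.918 times the B cell-like level. There was no replicate for these values.

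The comparison of genotypes asks whether the response in the secretory, fibroblast and macrophage classes differs in silica-injured lungs without CCR2. Herpud1, the membrane scaffold of the degradation machinery, had the smallest adjusted p of the members, and it was higher in CCR2KO fibroblasts. In alveolar fibroblast-like cells its lowest, median and highest hashtags were 189, 232 and 285 CPM in CCR2KO, against 49.3, 82.9 and 143 CPM in WT. Every CCR2KO hashtag lay above every WT hashtag, as was so for 18 of 11811 genes tested (0.152%). The means were 233 ± 36.8 CPM in CCR2KO and 86.3 ± 29.0 CPM in WT (SD, n = 8 and 9), a log2 change of 1.46 with a standard error of 0.18 (edgeR quasi-likelihood test, adjusted p = 6.894e-05 over all genes). In adventitial fibroblast-like cells the lowest, median and highest hashtags were 193, 291 and 384 CPM in CCR2KO, against 83.3, 128 and 214.5 CPM in WT. Herpud1 averaged 293 ± 60.3 CPM in CCR2KO and 145 ± 44.2 CPM in WT, with 7 of 8 CCR2KO hashtags above all WT hashtags, a log2 change of 0.99 ± 0.19 (SE; edgeR, adjusted p = 0.006205). With a call meaning an adjusted p under 0.05, Herpud1 was 1 of 2 members called among the 29 tested in alveolar fibroblast-like cells, where 0.576% of genes were called, and the only 1 called among the 28 tested in adventitial fibroblast-like cells, where 0.713% were called.

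**Figure D3:**
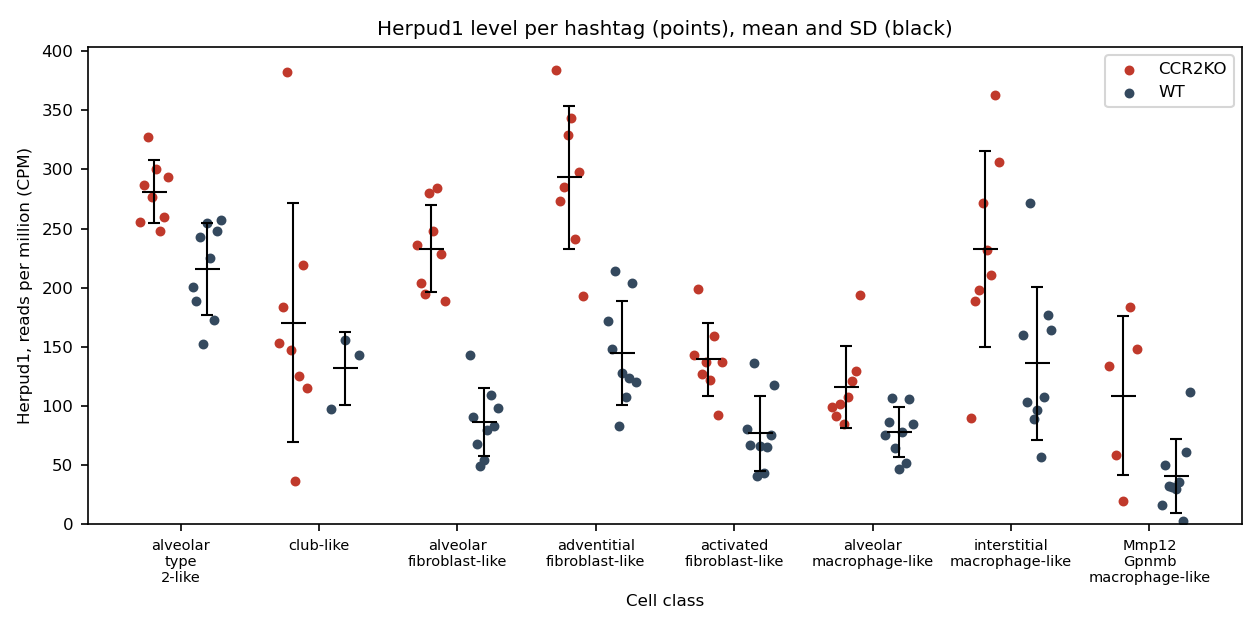
Herpud1 level per hashtag (CPM, vertical axis) in each of the 8 classes, CCR2KO hashtags left of WT hashtags, a point per hashtag with mean and SD. In alveolar fibroblast-like cells all CCR2KO points (189 to 285 CPM) lie above all WT points (49.3 to 143 CPM).

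In the other classes the Herpud1 difference was smaller relative to its error and did not pass the test. Activated fibroblast-like cells had 139.6 ± 30.8 CPM in CCR2KO and 76.9 ± 31.8 CPM in WT, a log2 change of 0.82 ± 0.22 (SE; edgeR, adjusted p = 0.1609). Alveolar type 2-like cells had 281 ± 26.7 CPM in CCR2KO and 216 ± 38.7 CPM in WT, a log2 change of 0.36 ± 0.11 (SE; edgeR, adjusted p = 0.4444), with 6 of 8 CCR2KO hashtags above all WT hashtags. In each of these the CCR2KO mean was higher and the hashtags of the genotypes overlapped. Interstitial macrophage-like cells had 232 ± 82.8 CPM in CCR2KO and 136 ± 64.5 CPM in WT (log2 change 0.76; edgeR, adjusted p = 0.4117). Alveolar macrophage-like cells had 116 ± 34.8 CPM in CCR2KO and 77.8 ± 21.1 CPM in WT (log2 change 0.58; edgeR, adjusted p = 0.2606). The Mmp12- and Gpnmb-high macrophages had 109 ± 67.4 CPM in CCR2KO (n = 5) and 41.2 ± 31.3 CPM in WT, with a log2 change of 1.40 (edgeR, adjusted p = 0.3547), and club-like cells 170.4 ± 101 CPM in CCR2KO and 132 ± 30.8 CPM in WT (n = 3; edgeR, adjusted p = 1.0). The Herpud1 log2 change was above 0 in all 8 of these classes and in 18 of the 22 tested, and had an unadjusted p below 0.05 in 11 of them.

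In alveolar fibroblast-like cells, hashtag numbers 1 to 3 gave Herpud1 236, 204 and 194 CPM in CCR2KO, against 143, 91.1 and 67.6 CPM in WT. Numbers 4 to 6 gave 280.5, 248 and 285 CPM in CCR2KO, against 49.3, 54.7 and 80.1 CPM in WT. Numbers 7 to 9 gave 228 and 189 CPM in the 2 CCR2KO hashtags, against 109, 82.9 and 98.4 CPM in WT. CCR2KO was above WT within each of the 3 blocks, with log2 changes of 1.10, 2.18 and 1.12 (edgeR, adjusted p = 0.1087, 0.0006262 and 0.3474). In adventitial fibroblast-like cells the changes within blocks were 0.80, 1.51 and 0.65, and in activated fibroblast-like cells 0.68, 1.43 and 0.40, with the middle block past the threshold in both (edgeR, adjusted p = 0.03577 and 0.03193). The share of all genes called within each block is not given beside these values. Whether the genotype difference itself differed between blocks was not tested.

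Dnajc3 (p58IPK), a co-chaperone of Hspa5, was the other member called. In alveolar fibroblast-like cells its lowest, median and highest hashtags were 330.2, 375 and 416 CPM in CCR2KO, against 202, 263 and 349 CPM in WT, and 7 of 8 CCR2KO hashtags lay above all WT hashtags. The means were 377 ± 28.1 CPM in CCR2KO and 278 ± 48.6 CPM in WT (SD, n = 8 and 9), a log2 change of 0.47 ± 0.11 (SE; edgeR, adjusted p = 0.04728). Of the alternative settings, the call was kept under DESeq2, the block covariate and the stricter cell filter, and among the runs that left out a hashtag only without WT hashtag 3 or WT hashtag 5. Xbp1, which did not pass the test, had the next smallest adjusted p in both of these fibroblast classes. Its mean was 399 ± 99.9 CPM in CCR2KO and 259 ± 61.9 CPM in WT in alveolar fibroblast-like cells (log2 change 0.65 ± 0.16 (SE); edgeR, adjusted p = 0.06791), and 335 ± 69.8 CPM in CCR2KO and 215 ± 42.3 CPM in WT in adventitial fibroblast-like cells (log2 change 0.61 ± 0.15 (SE); edgeR, adjusted p = 0.06587). Hspa5 had 2224 ± 294 CPM in CCR2KO and 1725 ± 299 CPM in WT in alveolar fibroblast-like cells (log2 change 0.39 ± 0.11 (SE); edgeR, adjusted p = 0.1102).

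Across the members in alveolar fibroblast-like cells, the log2 changes were mostly above 0. Of the 29 tested, 24 had a log2 change above 0, against 49.8% of all genes, with a median of 0.27, and 10 had an unadjusted p below 0.05, against 9.05% of all genes. The sum over the members was 9665 ± 728 CPM in CCR2KO and 8123 ± 792 CPM in WT, and the hashtags overlapped (8482 to 10636 CPM and 6828 to 9271 CPM). Among the chaperones and isomerases, of which Dnajc3 alone was called, Creld2 had a log2 change of 0.58, Dnajb9 of 0.55, Manf of 0.43, Pdia4 of 0.37, Pdia6 of 0.27, Hsp90b1 of 0.18, Pdia3 of 0.16 and Hyou1 of -0.16. Edem1 (0.01), Atf4 (0.01) and Ppp1r15a (-0.07) lay near 0, and Derl2 had 0.39. Ern1, the IRE1 sensor, was the lowest member at -0.51 with a standard error of 1.05, and Asns had -0.14. Sec61b, a subunit of the translocation channel, had 328 ± 53.0 CPM in CCR2KO and 398 ± 89.7 CPM in WT in alveolar fibroblast-like cells (log2 change -0.26; edgeR, adjusted p = 0.6201), and it was above 0 in only 1 of the 8 classes. Over the 22 classes the Sec61b log2 change was above 0 in 6, and its unadjusted p was below 0.05 in 5. In the Mmp12- and Gpnmb-high macrophages the median was 0.26 (23 of 29 members above 0, against 45.3% of genes), and in interstitial macrophage-like cells 0.17 (20 of 28, against 51.1%). Adventitial fibroblast-like cells had a median of 0.14 (18 of 28, against 50.4%), alveolar type 2-like cells 0.10 (18 of 30, against 49.5%), activated fibroblast-like cells 0.08 (18 of 29, against 50.2%), alveolar macrophage-like cells 0.06 (22 of 29, against 50.2%) and club-like cells 0.02 (13 of 26, against 52.1%). Over the alternative settings the median stayed between 0.24 and 0.33 in alveolar fibroblast-like cells. In the Mmp12- and Gpnmb-high macrophages it was -0.10 with limma, 0.10 with same-numbered hashtags as a block, 0.13 without the low-count filter or without CCR2KO hashtag 3 and 0.16 at equal depth, and in club-like cells it lay between -0.19 and 0.29. In the other 5 classes it stayed above 0 but moved by over 1.5 times in at least 1 setting, with ranges of 0.10 to 0.29 in interstitial and 0.05 to 0.15 in alveolar macrophage-like, 0.07 to 0.23 in adventitial and 0.02 to 0.12 in activated fibroblast-like and 0.04 to 0.20 in alveolar type 2-like cells. Manf, Creld2, Pdia6 and Dnajc3 were above 0 in all 8 classes, as Herpud1 was, and Manf in 20 of the 22. Ddit3 could be tested in 19 classes and was above 0 in 4 of them. Pdia4, a disulfide isomerase, averaged 293 ± 180.3 CPM in CCR2KO (n = 5) and 145 ± 34.5 CPM in WT (n = 9) in the Mmp12- and Gpnmb-high macrophages, a log2 change of 1.01 (edgeR, adjusted p = 0.1326). The members share hashtags and libraries and were chosen with earlier results of these data known, so these shares are descriptions.

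The call rate in the other classes is given beside the members. In activated fibroblast-like cells 0 of 29 members and 0.33% of genes were called, in alveolar macrophage-like cells 0 of 29 and 0.382%, in interstitial macrophage-like cells 0 of 28 and 0.4%, in the Mmp12- and Gpnmb-high macrophages 0 of 29 and 0.379%, in alveolar type 2-like cells 0 of 30 and 0.112%, and in club-like cells 0 of 26 and 0.0133% (edgeR, adjusted p under 0.05). Unadjusted p-values below 0.05 numbered 4, 5, 8, 3, 3 and 0 among the members of these classes, in that order, and 5 of 28 in adventitial fibroblast-like cells, against 7.52%, 8.12%, 7.31%, 10.6%, 5.63%, 4.63% and 8.58% of all genes. On simulated counts the test called 15%, 28%, 6%, 3%, 25% and 0% of 2-fold changes in the first 6 classes, in that order. A count of 0 members called therefore does not show equal levels.

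In the 14 other classes edgeR called 0 members. The share of all genes called and, after it, the share with an unadjusted p below 0.05 are given with the number of members at that unadjusted level. Among epithelial and stromal classes they were 0% and 2.97% in alveolar type 1-like cells (5 members), 0% and 2.65% in ciliated-like cells (0 members) and 0.0896% and 4.86% in smooth muscle or pericyte-like cells (1 member). Among endothelial classes they were 0.256% and 8% in general capillary-like cells (6 members), 0.122% and 4.74% in aerocyte-like cells (2 members) and 0.031% and 2.95% in lymphatic-like cells (0 members). Among dendritic and other myeloid classes they were 0.27% and 5.39% in conventional dendritic-like cells (1 member), 0.0173% and 3.64% in mature dendritic-like cells (1 member), 0.177% and 6.18% in nonclassical monocyte-like cells (3 members) and 0.109% and 5.38% in neutrophil-like cells (2 members). Among lymphoid classes they were 0.134% and 4.14% in B cell-like cells (2 members), 0.139% and 4.51% in T cell-like cells (0 members), 0.125% and 3.6% in natural killer-like cells (0 members) and 0.0262% and 5.34% in innate lymphoid type 2-like cells (1 member). Outside the fibroblasts, then, no class held a member past the adjusted threshold.

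The differences of the genotype effect between classes were tested for alveolar type 2-like against alveolar fibroblast-like cells, alveolar type 2-like against alveolar macrophage-like cells and alveolar fibroblast-like against alveolar macrophage-like cells. The edgeR interaction test called 0 genes (0%) in each, with 788 of 16923, 718 of 16765 and 834 of 17019 genes at an unadjusted p below 0.05, and DESeq2 size factors gave 0 as well. For Herpud1 the log2 change in alveolar type 2-like cells minus that in alveolar fibroblast-like cells was -1.10 (SE 0.23; edgeR, unadjusted p = 0.0001158, adjusted p = 0.4898), so the fibroblast effect is not shown to differ from the epithelial one. The unadjusted p was below 0.05 for 2, 1 and 5 members in these pairs, in that order.

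**Figure D4:**
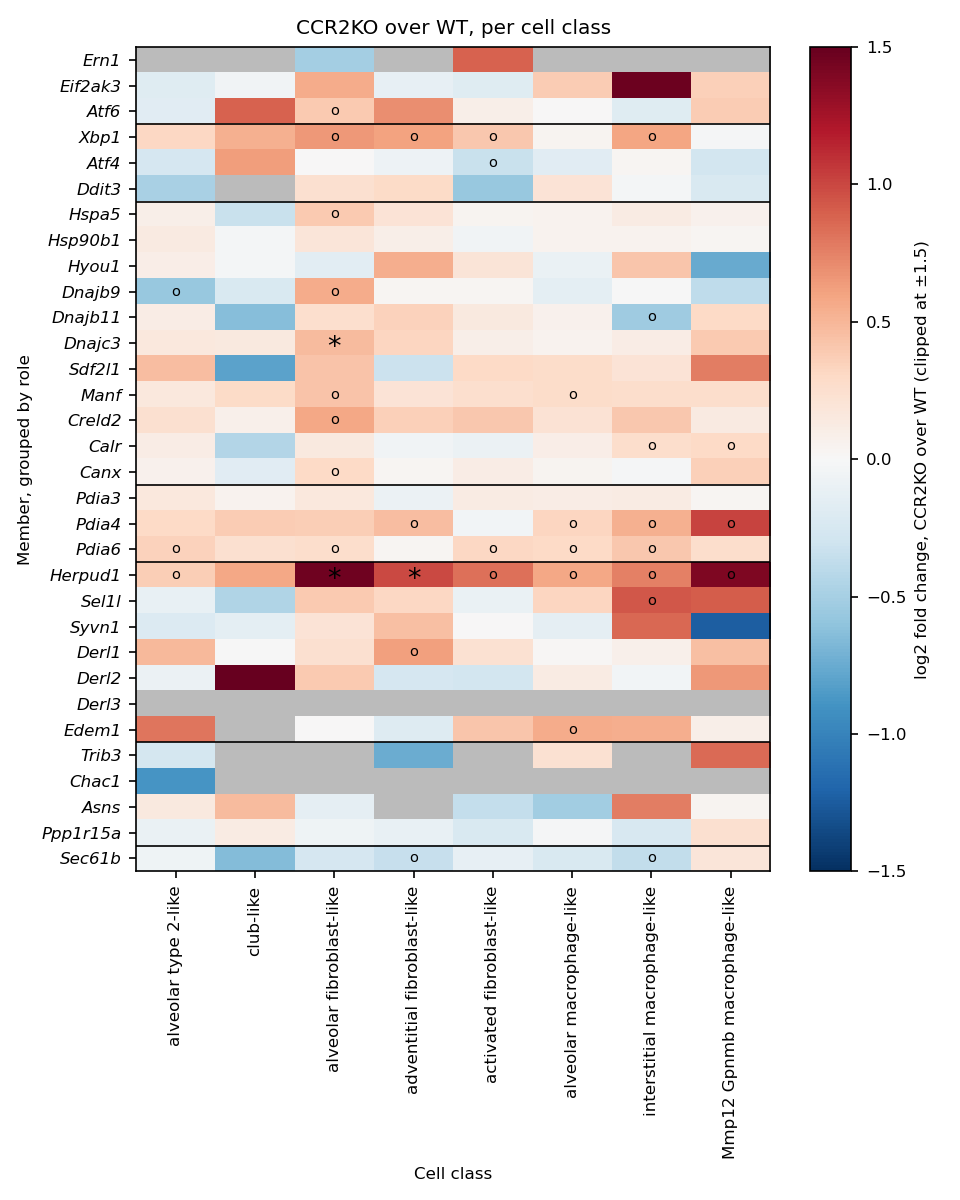
Log2 change of CCR2KO over WT (colour) for each of the 32 genes (rows, by role) in the 8 classes (columns), drawn up to 1.5 either way. A star marks an adjusted p under 0.05 and a circle an unadjusted p under 0.05, and grey cells were not tested. Herpud1 is above 0 in all 8 classes and has a star in alveolar and adventitial fibroblast-like cells, and Dnajc3 has one in alveolar fibroblast-like cells.

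Other lists of the pathway were counted in the same tests, in which 0.576% of all genes were called in alveolar fibroblast-like cells and at most 0.713% in any class. In alveolar fibroblast-like cells, 0 of 28 tested genes of translocation and glycosylation, 0 of 29 further folding genes, 0 of 22 further degradation genes and 0 of 21 further stress-sensing genes were called, with median log2 changes of 0.13, 0.16, 0.03 and 0.02. Likewise 0 of 32 further integrated stress response targets, 0 of 13 cytosolic heat shock genes and 0 of 16 immediate-early genes were called there, and the heat shock genes had a median of 0.31. Across the 8 classes the heat shock median lay between 0.07 and 0.44, and the immediate-early median between -0.32 and 0.63. Over the lists, the genes called in any of the 22 classes were Uggt1, which re-glucosylates unfolded glycoproteins, with a log2 change of 0.99 in alveolar macrophage-like cells (SE 0.22; edgeR, adjusted p = 0.04887), Vegfa, a target of the integrated stress response, with -2.43 in interstitial macrophage-like cells (SE 0.45; edgeR, adjusted p = 0.00968) and Hspa1b, a cytosolic heat shock chaperone, with 1.60 in smooth muscle or pericyte-like cells (SE 0.29; edgeR, adjusted p = 0.02242).

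Markers of other cell types also differed by genotype in the alveolar fibroblast-like cells, beside Herpud1. Club markers were called higher for 2 of 5 tested, plasma cell markers for 1 of 3, adventitial and activated fibroblast markers for 1 of 10 each and alveolar macrophage markers for 1 of 9, and general capillary and aerocyte markers were called lower for 1 of 9 and 1 of 10. Club markers summed to 1999 to 4507 CPM in CCR2KO and 1427 to 2352 CPM in WT hashtags, and activated fibroblast markers to 5920 to 9072 CPM in CCR2KO and 4370 to 6228 CPM in WT. The club list is not specific to club-like cells. It holds Aldh1a1, which was among the top 10 genes of a part of the alveolar fibroblast-like cells. The part of these markers in the Herpud1 difference was not tested. Plasma cell markers summed to between 63.3 and 212 CPM in CCR2KO, with a mean of 109.8 CPM, and between 13.01 and 58.5 CPM in WT, with a mean of 37.5 CPM, without overlap. Igha, an antibody heavy chain, averaged 41.5 CPM in CCR2KO and 2.102 CPM in WT. Igkc, a light chain, had 40.7 CPM in CCR2KO and 19.7 CPM in WT, and Jchain, which joins antibody units, 12.6 CPM in CCR2KO and 0.214 CPM in WT. These 3 genes were above 0 in all 8 CCR2KO hashtags. Igha and Igkc were above 0 in all 9 WT hashtags as well, and Jchain was at 0 in 3 of them. Mzb1, a plasma cell chaperone, was lower in CCR2KO, at 0.125 CPM against 3.02 CPM in WT. Ighg2b (0.334 against 0.663 CPM), Ighg2c (0 against 0.211 CPM) and Prdm1 (1.34 against 1.43 CPM) were lower in CCR2KO too. The other markers, Ighg1 (0.209 against 0.0702 CPM), Tnfrsf17 (0.0247 against 0 CPM), Sdc1 (11.4 against 8.5 CPM) and Pou2af1 (1.68 against 1.60 CPM), were higher in CCR2KO. In the CCR2KO plasma cell-like cells themselves the same markers summed to 441980 CPM and Herpud1 had 834 CPM. The CCR2KO alveolar fibroblast-like cells had 109.8 CPM for the markers and 233 CPM for Herpud1. The part of plasma cell RNA in the Herpud1 difference was not tested. In adventitial fibroblast-like cells, beside the Herpud1 call there, plasma cell markers were called higher for 2 of 3 tested (median log2 change 3.20), alveolar fibroblast markers were called higher for 1 of 10 (median 0.71) and alveolar type 2 markers lower for 1 of 10. Plasma cell markers summed there to between 48.3 and 1431 CPM in CCR2KO, with a mean of 313 CPM, and between 16.1 and 110.4 CPM in WT, with a mean of 60.5 CPM, and the ranges overlapped. Alveolar fibroblast markers summed to 1366 to 2341 CPM in CCR2KO and 713 to 1576 CPM in WT, and club markers to 402 to 1226 CPM in CCR2KO and 151 to 647 CPM in WT. Their part in the adventitial Herpud1 difference was not tested either.

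The 32 members also varied within a library between blocks of hashtag numbers (1 to 3, 4 to 6 and 7 to 9), which the files do not tie to a day or animal. In CCR2KO activated fibroblast-like cells edgeR called 0 of 31 members (8 with an unadjusted p below 0.05), against 3.32% of 14278 genes. Hspa5 had 1861, 2245 and 2187 CPM in the first CCR2KO block, 1663, 1574 and 1838 CPM in the second and 1552 and 1638 CPM in the third. In WT activated fibroblast-like cells 4 of 29 members were called, against 3.23% of 13439 genes, and they were Hspa5, Sel1l, Ppp1r15a and Dnajc3 (edgeR F test, adjusted p = 0.0103, 0.0285, 0.03774 and 0.04472). In WT, Hspa5 had 2118, 2179 and 2339 CPM in the first block, 1458, 1402 and 1438 CPM in the second and 1314, 1610 and 1678 CPM in the third. Ppp1r15a had 205, 260.0 and 201 CPM in the first block, 229.6, 269.6 and 249.7 CPM in the second and 102, 159 and 126 CPM in the third. Hspa5 and Dnajc3 were highest in the first block, and Ppp1r15a lowest in the third. Sel1l had 143, 140.04 and 101 CPM in the first block, 58.3, 66.4 and 101 CPM in the second and 41.0, 54.4 and 31.8 CPM in the third. Leaving out single WT hashtags left between 1 and 4 of these calls, and Hspa5 was called each time. Dnajc3 was kept only without WT hashtag 8, Sel1l was lost without WT hashtag 1, 2, 5, 7 or 9, and Ppp1r15a without WT hashtag 1, 4, 5, 6, 7 or 9.

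**Figure D5:**
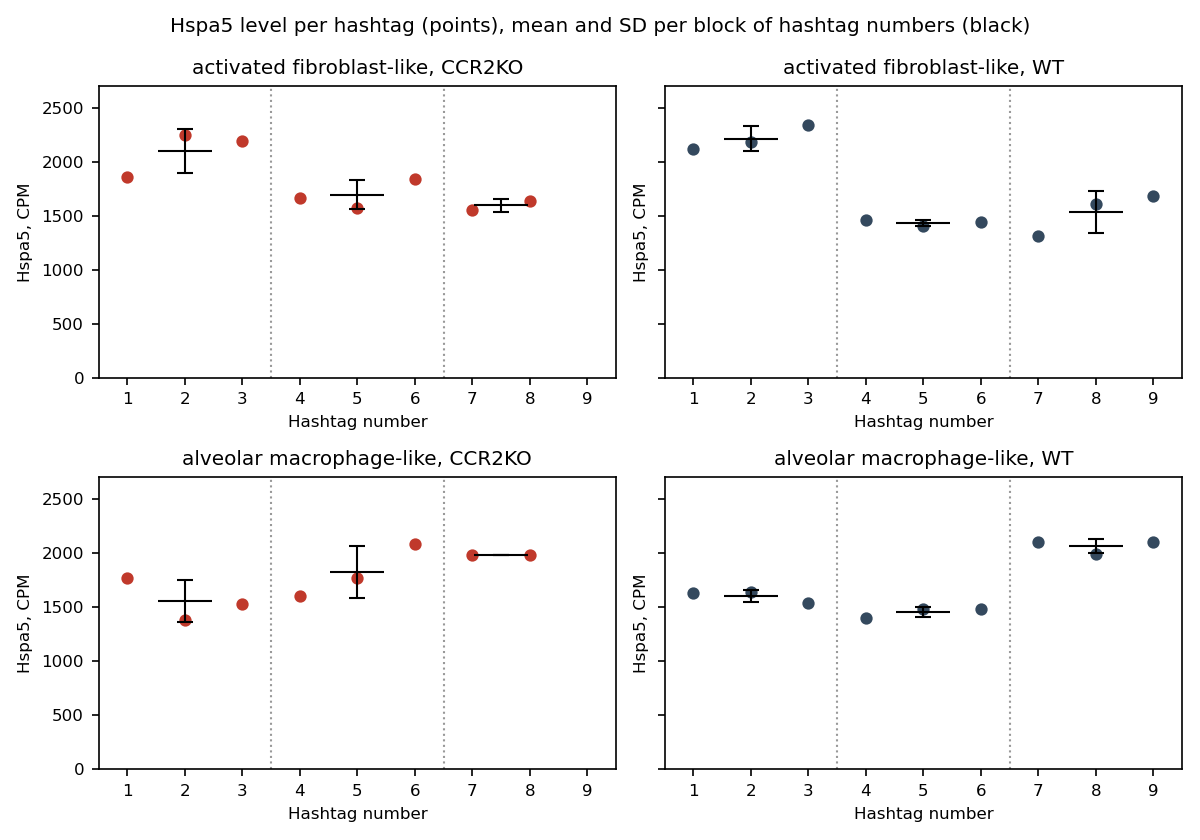
Hspa5 level per hashtag (CPM, vertical axis, from 0) by hashtag number in activated fibroblast-like (top) and alveolar macrophage-like cells (bottom), CCR2KO panels left of WT panels, with the mean and SD of each block in black and dotted lines between blocks. In WT activated fibroblast-like cells the first block of Hspa5 (2118 to 2339 CPM) lies above the other blocks (1314 to 1678 CPM).

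In CCR2KO alveolar macrophage-like cells Hspa5 had 1769, 1378 and 1525 CPM, then 1606, 1774 and 2081 CPM, then 1982 and 1979 CPM over the blocks, and edgeR called 0 of 31 members (5 with an unadjusted p below 0.05), against 0.846% of genes. In WT alveolar macrophage-like cells Hspa5 was the only member called (1 of 30, against 1.79% of 12261 genes; edgeR F test, adjusted p = 0.01432), with 1629, 1638 and 1535 CPM, then 1398, 1480.1 and 1482 CPM, then 2101, 1991 and 2104 CPM over the blocks, so in WT its high block was the last in these cells and the first in activated fibroblast-like cells. The call was lost without WT hashtag 7 or WT hashtag 9. In CCR2KO alveolar type 2-like cells Sec61b had 352, 345 and 365 CPM, then 559, 488 and 521 CPM, then 325 and 338 CPM (1 of 32 members called, against 0.658% of genes; edgeR F test, adjusted p = 0.03542), and the call was lost when any of CCR2KO hashtags 1 to 6 was left out. Immediate-early genes, which dissociation can induce, also differed between blocks. Of these, 11 of 16 were called in WT activated fibroblast-like cells and 7 of 16 in CCR2KO alveolar type 2-like cells. In the WT cells their sum was 12101 to 13773, 12043 to 14659 and 5949 to 7729 CPM over the blocks. It was low in the third block only, as Ppp1r15a was, while Hspa5 was already lower in the second. The part of the immediate-early genes in the member differences was not tested. The other block tests called 0 members. In CCR2KO the share of genes called was 0.115% in club-like, 0.088% in alveolar fibroblast-like, 0.0485% in adventitial fibroblast-like and 0% in interstitial macrophage-like cells, with 0, 6, 3 and 1 members at an unadjusted p below 0.05. In WT it was 0.597% in alveolar type 2-like, 0.103% in alveolar fibroblast-like, 0.026% in adventitial fibroblast-like, 0.176% in interstitial macrophage-like and 0.638% in Mmp12- and Gpnmb-high cells, with 7, 6, 0, 5 and 3 such members.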

How the data were processed

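Single-cell RNA of silica-treated lungs was measured with BD Rhapsody cartridges, 1 library each for CCR2KO and WT, with cells assigned to hashtags by the authors. The values are whole-number read counts per gene and cell, as deposited by the authors; whether molecular identifiers were collapsed, and whether counting used strand, is not given in the sources used here. The tools named in the submitters' processing notes are Bowtie2 2.4.2, R 3.6.3 and cutadapt 2.10, with GRCm38 as the build. Columns named as doublets and 2 columns without a hashtag were left out.

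The cell filter asked for 200 genes or more and for no more than 25% of reads from mitochondrial genes. Scrublet (scanpy 1.11.5) doublets were then taken out, 336 (2.21%) in CCR2KO and 370 (2.15%) in WT. Cells were clustered with Leiden at resolution 1.5 on 2000 variable genes and 40 components. Clusters were named "-like" from marker lists, and 6 clusters without a name were divided again at resolution 0.5, a step chosen after seeing the data; 6 parts with 570 cells stayed unnamed. Some names, such as the club-like class, rest on that division.

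Counts were summed per class and hashtag (at least 10 cells, at least 3 hashtags per genotype) and tested with edgeR 4.0.16 (quasi-likelihood, TMM, low-count filter), with Benjamini-Hochberg adjustment over all genes tested and a threshold of 0.05. Differences between blocks and between classes in the genotype effect used edgeR too. Levels are CPM of the summed counts, and all tests are two-sided. Hashtags are separately stained suspensions that are not stated to be animals, so p-values measure only the spread between them and may be technical. With 1 library per genotype, library and genotype are confounded. Alternatives were DESeq2 1.42.0, DESeq2 size factors, no filter, stricter cells, limma 3.58.1 on log2(mean CPM + 1), thinning to 5000 reads, resolution 0.8, and leaving out each hashtag. Tests were checked on simulated counts with 200 genes changed in each of the 8 classes. Of the 2-fold changes, 30% were called in alveolar, 14% in adventitial and 15% in activated fibroblast-like cells. Of the 4-fold changes, 54%, 46% and 54% were called in these classes. The 4-fold share was lowest in club-like cells (0%) and the Mmp12- and Gpnmb-high macrophages (23%), and highest in alveolar macrophage-like cells (64%). All 32 members were named, and genes of the other lists only where called. The members and lists were chosen with earlier results of these data known. Herpud1, Dnajc3 and Hspa5 were picked for sequences because the results turn on them, and promoters are from RefSeq on GRCm38.p6; gene positions are from GENCODE M21. Same-numbered hashtags were checked for pairing and did not meet the criterion.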

Additional observations from a re-analysis of the deposited data

Results flagged for a closer look

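Herpud1 in alveolar macrophage-like cells of CCR2KO hashtag 8 was 193.99 CPM, and the nearest of the other 7 CCR2KO hashtags had 129.7 CPM. The gap was 0.587 of the whole range of the 8 hashtags, above the limit of 0.526, and this was the only value set apart among the 29 groups examined, and chance sets apart about 1 group in 20. Without that hashtag the Herpud1 log2 change in these cells was 0.44, against 0.58 with it, and it was not past the adjusted threshold either way.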

How the results depend on the processing

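Herpud1 stayed called in alveolar and adventitial fibroblast-like cells under every alternative that was run there, with log2 changes of 1.39 to 1.59 and 0.91 to 1.18. The count of members called in alveolar fibroblast-like cells was 2, and it was 1 with DESeq2 size factors, without the low-count filter, with cells thinned to 5000 reads, with limma and with the divided clusters left out, 3 with DESeq2 (Herpud1, Dnajc3 and Xbp1), 4 with the hashtag-number blocks as a covariate (Herpud1, Dnajc3, Xbp1 and Hspa5), and 1 to 2 over runs without a single hashtag. In adventitial fibroblast-like cells the count was 1, and 2 with DESeq2 (Xbp1 beside Herpud1) and 1 to 2 over the leave-out runs. In activated fibroblast-like cells it was 0, and 1, Herpud1, with DESeq2 and with the covariate, and 0 to 1 over the leave-out runs. DESeq2 called 1 member each in alveolar (Pdia6), interstitial and Mmp12- and Gpnmb-high macrophages (Pdia4 in both), where edgeR called 0. Between blocks, 2 members were called in CCR2KO alveolar type 2-like cells and 1 in CCR2KO activated fibroblast-like cells without the filter, where WT activated fibroblast-like cells had 3 in place of 4; the leave-out runs gave 0 to 0 and, in WT, 1 to 4 for activated fibroblast-like and 0 to 1 for alveolar macrophage-like cells. Leaving the 10 most abundant genes out of the totals gave summed levels of 7446.7 (alveolar type 2-like), 8105.1 (club-like), 10048 (alveolar fibroblast-like), 11636 (adventitial), 10511 (activated), 10316 (alveolar macrophage-like) and 9097.8 CPM (interstitial macrophage-like). Same-numbered hashtags did not pair the samples (2 of 8 pairs above the limit in activated fibroblast-like cells, 0 in the others), and with a replicate block of same-numbered hashtags the alveolar fibroblast-like count was 2, Herpud1 and Hspa5, with Dnajc3 not called. For club-like cells the strict filter, the replicate block and the run without divided clusters were not run, for lack of hashtags. The cause of these changes was not tested.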

Other observations

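Of the 5 genes that lie beside Herpud1 on chromosome 8 within 200 kb, 3 were tested in alveolar fibroblast-like cells and did not pass, and Slc12a3 and Nlrc5 were not tested. Nup93 had a log2 change of 0.21, Cpne2 of 0.52 and Fam192a of 0.29 (edgeR, adjusted p = 0.9844, 0.9581 and 0.8808), against 1.46 for Herpud1. This was a description of the neighbourhood, with no test between genes.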
